A study of Mus musculus with 16 samples.

Results

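Follicular B cells labelled Edited were compared with follicular B cells labelled Non-edited, both from mice that carried a transgenic B cell receptor. The comparison held 2 of the 8 samples of the series, 1 of each kind, and each was hybridised to 2 dual-colour Agilent mouse arrays. Both samples came from C.B17 mice of genotype VH3609t +/- crossed with Vk21-5Tg +/-, on a Thy-1 knockout background, so that both held the same heavy chain transgene, the same light chain transgene and the same missing gene. The 6 other samples were follicular B cells of the same strain. Auto.Neg (n = 2) carried the VH3609µ/Vk21-5κ receptor against Thy-1 in mice without Thy-1. Auto.Pos (n = 2) carried a VH3609µ/Vk19-17κ receptor against intestinal goblet cells, for which another label gives the light chain as Vkappa17-17kappa, and WT (n = 2) was wild type. Each sample was set against a reference RNA pooled from 6 cell lines (EL4, J558, DN3, R1, P388d and RS2), with the sample in Cy5 on 1 array and in Cy3 on the other. The labels do not say what marked a cell as edited, whether Edited and Non-edited cells were sorted from the same mice, how many mice each sample held or their age, and give no promoter for the transgenes.

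A B cell receptor is built of heavy and light chains whose variable regions are joined from gene segments during development, and a cell usually keeps 1 productive light chain. Receptor editing is a further rearrangement at the light chain loci that replaces that light chain, often after the first receptor has bound a self antigen. In the mouse most light chains are of the kappa type, encoded on chromosome 6, and fewer are lambda. A cell that holds ready-made heavy and light chain transgenes largely stops rearranging its own genes. Transcripts of other variable regions can reflect rearrangement of the endogenous genes, but their source was not tested here.

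A unit below is a gene, or for immunoglobulins a single probe, because variable regions are so alike that a probe can catch transcripts of related segments. All levels are log2 ratios of sample over reference, differences are Edited minus Non-edited on that scale, and pairs of array values are given with the sample in Cy5 first. A unit was called when it was at least 2-fold apart in the same direction in both dye orientations. With 1 sample of each kind no test of the groups was possible, and no p-values were computed. As a measure of scale, a difference was said to exceed the replicate spread when it was larger than the difference between the 2 samples of Auto.Neg, of Auto.Pos and of WT for the same probe.

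The probes on which the immunoglobulin results rest are shown first, as 60-base sequences from the deposited array files, written 5′ to 3′ with runs of at least 12 bases shared with another probe of the set in capitals. The first 4 are the kappa units called lower in Edited, at chr6:70606692-70606751, chr6:70721928-70721987, chr6:70625849-70625908 and chr6:70690221-70690280 of mouse build mm7, plus strand.
LOC674029: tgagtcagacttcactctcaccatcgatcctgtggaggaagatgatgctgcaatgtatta
ENSMUST00000089809: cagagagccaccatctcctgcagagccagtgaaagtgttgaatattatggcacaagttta
BC080787: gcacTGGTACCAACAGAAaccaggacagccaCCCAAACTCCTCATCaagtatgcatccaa
BC108385: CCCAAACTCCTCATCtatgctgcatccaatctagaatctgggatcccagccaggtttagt
The next 4 are the kappa units with the largest differences in the other direction. They lie at chr6:70092163-70092222 (minus strand), chr6:70744350-70744399 (plus), chr6:70424460-70424519 (minus) and chr6:70475512-70475571 (minus).
ENSMUST00000066275: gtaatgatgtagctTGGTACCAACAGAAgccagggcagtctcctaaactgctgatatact
BC002112: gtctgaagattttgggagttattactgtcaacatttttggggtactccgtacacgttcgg
Igkv6-14: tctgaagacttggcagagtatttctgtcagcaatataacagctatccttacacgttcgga
LOC669070: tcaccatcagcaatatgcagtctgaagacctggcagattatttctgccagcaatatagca
The last 4 are heavy chain units on the minus strand of chromosome 12. M19902 at chr12:111146928-111146981 and Igh-VJ558 at chr12:111118840-111118898 had the largest differences of their locus and share a run of 25 bases, so they may read the same transcripts. LOC619916 at chr12:113252694-113252753 and ENSMUST00000074486 at chr12:112815501-112815560 were picked for the largest mean of the transgenic samples over WT.
M19902: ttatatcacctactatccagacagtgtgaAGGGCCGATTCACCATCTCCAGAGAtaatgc
Igh-VJ558: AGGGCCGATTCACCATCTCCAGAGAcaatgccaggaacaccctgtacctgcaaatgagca
LOC619916: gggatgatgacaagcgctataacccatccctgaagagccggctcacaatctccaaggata
ENSMUST00000074486: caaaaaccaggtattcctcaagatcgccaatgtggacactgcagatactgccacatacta

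On the 4 arrays of Edited and Non-edited, 62.0% to 66.3% of probes rose well over background in the sample's colour, and on the other 12 arrays 64.8% to 81.9% did. Edited, Non-edited and Auto.Neg.1 were scanned on the same day with the same scanner protocol, each on a slide of its own, so slide and sample cannot be told apart. The other 5 samples were scanned on other days or with another scanner. Xist, the X-inactivation RNA of female cells, read 9.80 in Non-edited, 10.13 in Edited and 9.12 in Auto.Pos.2, and between -0.57 and 0.16 in the other 5 samples. The Y-linked Ddx3y read -3.68 in Non-edited, -4.28 in Edited and -3.86 in Auto.Pos.2 and between 1.36 and 2.69 elsewhere. Edited and Non-edited thus matched each other in sex, while Auto.Neg, WT and Auto.Pos.1 differed from them on these 2 genes. Eif2s3y, also Y-linked, was not above background in Edited or Non-edited. It read 5.96 to 7.25 in Auto.Neg and WT but 0.89 in Auto.Pos.1. Of the 16 columns of the submitters' value table, 10 followed another array than their own label, but all 4 columns of Edited and Non-edited followed their own arrays. The attribution of the other samples was taken from the scanner files.

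Of 18121 units tested, 267 were higher in Edited (1.47%) and 35 were lower (0.193%). The difference exceeded the replicate spread for 223 of the higher units (1.23% of all tested) and 24 of the lower ones (0.132%). Immunoglobulin units made up 95 of the 267 and 5 of the 35, although only 176 of them were tested. Among the 17945 other genes 172 were higher (0.958%) and 30 were lower (0.167%). The median difference over all units was -0.03, with 0.62 at the 95th percentile and -0.48 at the 5th. Centring each array on its median in place of loess moved that median to 0.13 and reduced the lower units to 10. The samples of a replicated group stood further apart, at 9.59% of units between the Auto.Neg samples, 9.63% for Auto.Pos and 7.04% for WT, against 1.67% here, and those pairs were scanned on different days.

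**Figure D1:**
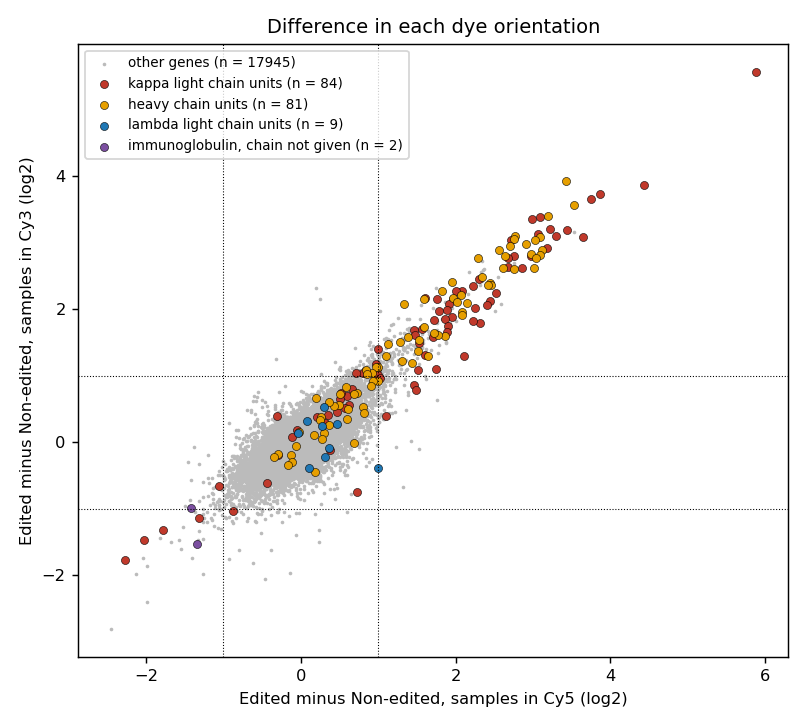
Difference between Edited and Non-edited (log2, sample over reference) on the arrays with the samples in Cy5 (horizontal axis) and in Cy3 (vertical axis), 1 point per unit, with dotted lines at the 2-fold limits. Kappa (red) and heavy chain (orange) units fill the upper right corner up to 5.72, lambda units (blue) stay inside the limits, and the lower left corner holds 35 units.

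Light chains of the kappa type differed in both directions. Of 84 kappa units tested, 49 were higher in Edited, 4 were lower and 31 were not called, and the median difference was 1.64, against -0.03 over all units. By position in the locus alone, a rule widened after values were seen, 15 of the 49 and 1 of the 4 were classed as kappa. A unit kept through Edited alone could hardly be called lower, and 7 of the 49 were not well above background on either Non-edited array. The difference exceeded the replicate spread for 46 of the 49 higher units and for all 4 lower ones.

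The 4 lower kappa units stood far above the reference in Non-edited and Auto.Neg, whose light chain transgene was Vk21-5. LOC674029, described in the files as similar to a kappa V-III region of the MOPC 63 type, read 5.97 and 5.66 in Non-edited and 3.70 and 3.89 in Edited. The Auto.Neg samples read 5.11 and 5.92, the WT samples 2.77 and 2.01, and the Auto.Pos samples 0.02 and 0.30. The difference was -2.02, a 4.06-fold fall. For this unit the direction depended on how the reference was read. The scanner software's own ratio gave 0.56 the other way, while the sample channel alone went from 12.86 and 13.16 (log2 intensity) in Non-edited to 10.22 and 10.31 in Edited. Its reference channel was dim, at 6.42 to 7.5 on the same 4 arrays.

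ENSMUST00000089809, a variable region described from the antibody K1-4k, read 5.46 and 4.98 in Non-edited and 3.43 and 3.52 in Edited, a difference of -1.74. BC080787, described as a kappa chain complex cDNA, read 7.78 and 7.01 in Non-edited and 5.99 and 5.69 in Edited, a difference of -1.55. BC108385, placed in the kappa locus by position alone, read 6.40 and 5.54 in Non-edited and 5.09 and 4.4 in Edited, a difference of -1.23. Under median centring this last difference was -0.79, short of the 2-fold limit. In Auto.Pos, whose light chain transgene is another one, the 4 units read between -0.93 and 1.20, below every other sample, with a median of -0.18 in Auto.Pos.1 and 0.21 in Auto.Pos.2. In Edited all 4 still lay above both WT samples and below both Auto.Neg samples. U55685, an anti-DNA light chain whose type the files do not give, was also called lower, with 6.63 and 6.49 in Non-edited, 5.28 and 4.96 in Edited and 4.18 and 3.43 in WT. Unlike the 4 kappa units, it was higher in Edited than in Auto.Neg, at 4.57 and 4.55. ENSMUST00000089814, similar to a V-III region, read 7.20 and 6.70 in Non-edited against 6.32 and 5.67 in Edited. Its difference of -0.96 was not called, yet it exceeded the replicate spread of 0.55.

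**Figure D2:**
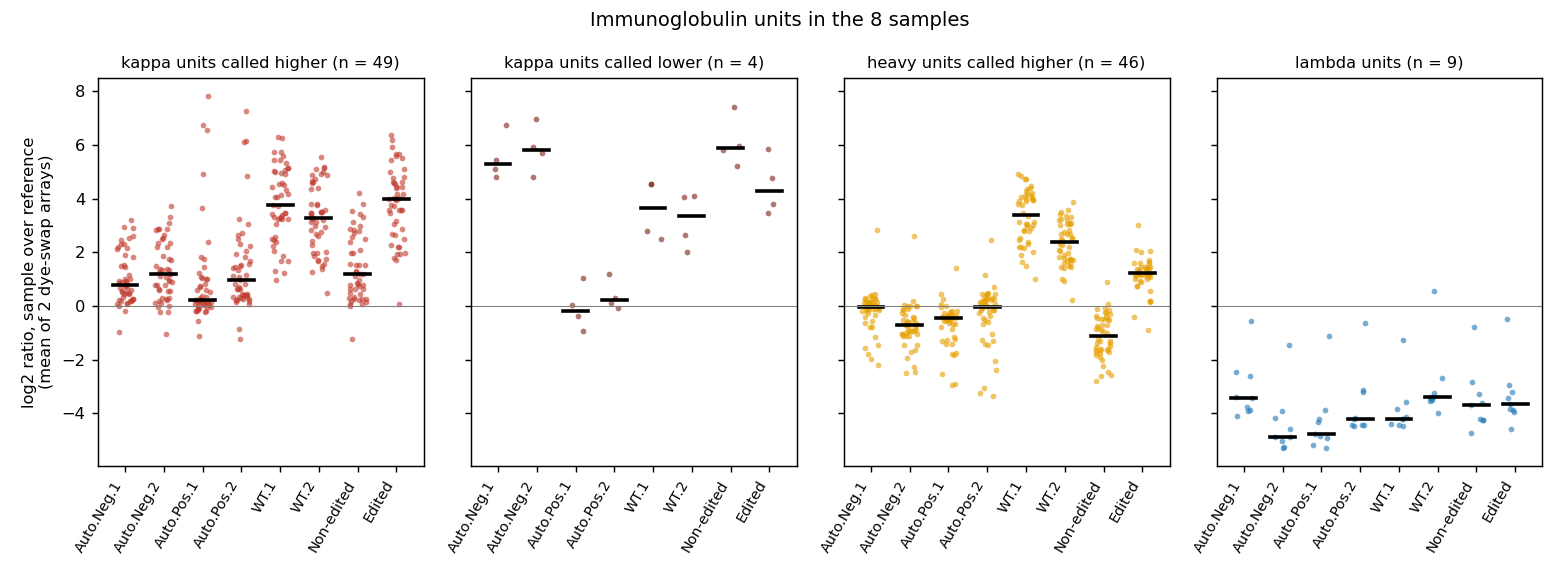
Levels (log2 ratio of sample over reference, mean of the 2 arrays) of immunoglobulin units in the 8 samples. Each point is a unit and each bar the median. The 49 kappa units called higher had medians of 1.19 in Non-edited and 3.98 in Edited, beside 3.76 and 3.28 in WT. The 4 called lower went from 5.89 to 4.27, the 46 heavy units from -1.13 to 1.21, and the 9 lambda units stayed near -3.68 and -3.64.

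The kappa units higher in Edited spread over many variable segments. ENSMUST00000066275, described from the antibody BA.N4:4.57, read 0.45 and 0.43 in Non-edited and 6.33 and 6.0 in Edited, a 52.9-fold difference. It read 3.71 and 2.96 in WT and at most 2.05 in Auto.Neg and Auto.Pos, so Edited stood above all 7 other samples. Another probe given the same transcript name differed by 2.17 and was highest in Auto.Pos, at 7.81 and 7.25, so the probes do not read the same transcripts. BC002112, assigned by position, read 1.42 and 1.61 in Non-edited and 5.86 and 5.47 in Edited, beside 5.42 and 4.71 in WT. Igkv6-14, described from a Vk19 anti-DNA light chain, read 0.47 and 0.80 in Non-edited and 4.33 and 4.52 in Edited, below the 5.42 and 4.88 of WT. LOC669070, similar to a V-V region of the MPC11 type, was not well above background on either Non-edited array and was at least 13-fold higher in Edited, where it read 3.87 and 4.04.

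The other 6 of the 10 largest kappa differences were Igk-V1 (3.37), ENSMUST00000089796 (3.32), U76382 (not well above background in Non-edited and at least 9.39-fold higher), LOC213481 (3.21), Igkv1-133 (3.20) and ENSMUST00000080852 (3.17). The last did not exceed the replicate spread, since the Auto.Neg samples read 0.07 and 3.30. The median level of the 49 units in Edited was close to WT and far from Auto.Neg, at 0.78 and 1.18. Edited was above both WT samples for 24 units, between them for 16 and below both for 9, and it was above both Auto.Neg samples for all 49. Non-edited was below both WT samples for 47. The 49 were picked for a high Edited against Non-edited, so these positions are a description only. Of them, 7 were not well above background on either Non-edited array. By the region named in their descriptions, 3 of 4 V-II units, 8 of 10 V-V units and 4 of 8 V-IV units were higher, while 0 of 4 V-III and 0 of 2 V-I units were, and 1 V-III unit, LOC674029, was lower. With the scanner's ratio of 0.56 for that unit, 0 of 4 V-III units would be lower. ENSMUST00000089809, BC080787 and BC108385, also called lower, have no region named in their descriptions and are not in the counts by region. Their probe sequences were not assigned to a region, so these counts do not show how many lower units are of the V-III type. Under every alternative their differences stayed below 0, at -1.22, -1.16 and -0.79 where they were smallest. The counts of kappa units are not independent, since 31 of the 84 share a run of at least 20 bases with another.

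The 4 lower kappa units lay near 1 end of the locus. Of the 83 kappa units with a position on chromosome 6, spread over 3203 kb, the 4 lower ones lay between 22.4 and 137.7 kb from the last kappa unit along the chromosome, at the end of the locus where the J and constant segments follow. Within those 137.7 kb there were 9 units, 4 lower, 3 higher and 2 not called. Beyond them there were 74 units, 46 higher, 0 lower and 28 not called. The stretch was marked off after the values were seen and is a description. Its outer limit was set by LOC674029, whose direction turned with the scanner's ratio. Without that unit the stretch was 118.5 kb long and held 8 units, 3 lower, 3 higher and 2 not called. The 3 higher units near the end were BC002112, BC031498 and L18942, and the placement of rearranged transcripts there is uncertain: the match of L18942 runs from 70722138 to 70740584, far longer than its probe, and that of BC002112 covers fewer bases than its probe. The Vk21 family of the transgene is an older name for the Igkv3 genes, which lie near this end of the locus, but no file ties the lower units to the transgene itself.

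**Figure D3:**
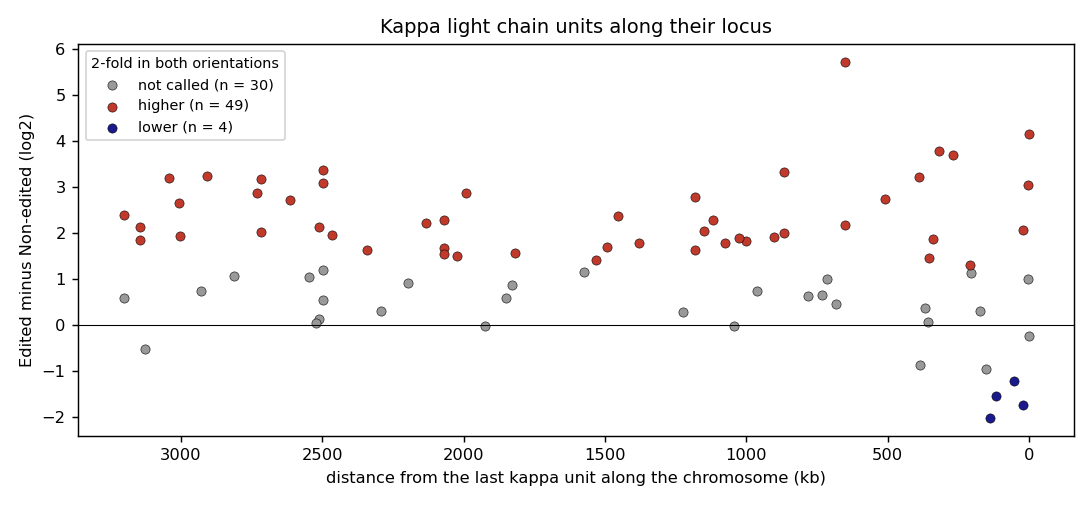
Difference between Edited and Non-edited (log2) for 83 kappa units against their distance in kb from the last unit along chromosome 6. Blue points, the 4 units lower in Edited, lie within 137.7 kb of the right-hand end, and red points, the 49 higher ones, span the whole 3203 kb.

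Lambda light chains did not follow. All 9 lambda units were well above background, 0 were called, and the differences ran from -0.14 to 0.41 with a median of 0.21. Of these 8 read Iglv1 transcripts, with means between -4.74 and -2.81 in Non-edited and between -4.60 and -2.95 in Edited. The reference holds J558, a plasma cell tumour line that makes a lambda light chain, so levels far below the reference do not show that lambda was scarce. The ninth, at the J-C lambda 3 cluster, read -0.14 and -1.46 in Non-edited and 0.87 and -1.85 in Edited, with opposite signs in the 2 orientations.

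Heavy chains moved one way. Of 81 heavy chain units tested, 46 were higher in Edited and 0 were lower, and the median difference was 1.44. Probes well above background in either sample were kept, and 14 of the 46 were not so on either Non-edited array. Units kept through Edited alone could hardly be called lower, so the counts depend in part on that filter. With other filters the median stayed between 1.20 and 1.66. Of the 46, 6 were classed as heavy by position alone. The difference exceeded the replicate spread for 44 of the 46. M19902, from a rearranged gamma chain, read -2.31 and -2.80 in Non-edited and 1.12 and 1.12 in Edited, a 12.8-fold difference, beside 2.79 and 1.60 in WT. Igh-VJ558 read -2.70 and -2.88 in Non-edited and 0.83 and 0.69 in Edited. It is described as a J558 family cDNA, which was not checked against its probe sequence. ENSMUST00000076933 differed by 3.30, AI324046 by 3.09 and LOC435333 by 3.03. In contrast to the kappa units, the heavy units did not reach the level of WT: Edited was below both WT samples for 44 of the 46 and above both Auto.Neg samples for all 46. Their median was 1.21 in Edited, beside 3.39 and 2.39 in WT and -0.03 and -0.71 in Auto.Neg. Non-edited was below both Auto.Neg samples for 42. The 46 were picked for a high Edited against Non-edited, so these positions are a description only. The counts of heavy units are not independent, since probes can read the same transcripts, and shared runs were not counted over all heavy units.

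The sizes of the heavy chain differences depended on how low signals were treated. The median of all heavy units was 1.97 with a background offset of 16 in place of 50, 2.06 in the submitters' table and 3.34 in the scanner's own ratios, always in the same direction. Of the 46 higher units, 14 were not well above background on either Non-edited array.

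The 2 heavy units with the largest mean of the transgenic samples over the WT mean were picked for that trait, and neither was called. LOC619916, which the files describe as similar to the B1-8 heavy chain, read 5.59 and 5.17 in Non-edited and 5.30 and 4.99 in Edited. It read between 4.79 and 6.16 in Auto.Neg and Auto.Pos, and 2.22 and 1.80 in WT. ENSMUST00000074486, described as similar to a V-II region, read 4.94 in Non-edited and 4.65 in Edited, beside 4.10 and 3.14 in WT. These descriptions were not checked against the probe sequences. No file ties either unit to the VH3609 transgene, and neither sequence was matched to it, so their variable region family is not settled here. The mu and delta constant regions were not called either. For Ighm, the mu heavy chain, the 2 probes next to the delta constant region differed by -0.25 and -0.14, the latter with opposite signs in the 2 orientations. A further Ighm probe placed among the variable segments differed by 0.96. The delta constant region differed by 0.22. Of the units named for gamma heavy chains, 3 Ighg probes were called higher, by 2.94, 2.18 and 2.14, and 3 Ighg1 probes were not, at 0.93, 0.62 and 0.53. The files do not say which of the Ighg probes read constant sequence.

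The immunoglobulin units called in either direction leaned to the side of wild type. A WT mean above the Auto.Neg mean was found for 41.6% of all units and one below it for 58.4%. Among the 95 higher immunoglobulin units it was above for 94 (98.9%), and among the 5 lower ones it was below for all 5. The share over all tested immunoglobulin units was not counted. Over all tested kappa units the medians were 3.23 and 2.71 in WT against 0.67 and 1.00 in Auto.Neg. Those of heavy units were 2.80 and 1.77 against 0.09 and -0.16. The 94 of 95 therefore does not set the higher units apart from other immunoglobulin units. Among other genes the WT mean was above the Auto.Neg mean for 98 of 172 higher ones (57.0%) and below it for 21 of 30 lower ones. Edited against Auto.Neg.1, the sample scanned beside it, gave 320 higher and 140 lower units, of which 86 and 2 were immunoglobulins. Non-edited against the same sample gave 85 and 129, of which 11 and 19 were immunoglobulins. Both comparisons share Auto.Neg.1 and are given side by side only.

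The B cell identity of the samples was alike. All 14 genes of the B cell list were measured, 0 were called and their median difference was 0.07. Pax5, the B cell transcription factor, came nearest to a call, with 1.15 and 1.44 against 2.15 and 2.22, a difference of 0.89, and 0.39 on its second probe. Thy1, absent by genotype from both samples, had 2 probes. The one measured on all arrays read -0.66 and -0.37 in Non-edited and -1.41 and -1.45 in Edited. Auto.Neg read -0.55 and 0.46 on it, above Auto.Pos (-2.93 and -3.77) and WT (-3.62 and -3.06), although Auto.Neg, Edited and Non-edited were the knockout samples. The other probe had a spot marked as an outlier on 1 Edited array, so its difference over both orientations could not be computed. With the samples in Cy5 it read -3.32 in Non-edited and -4.03 in Edited. The deleted part of the gene is not given in the sources used here, so neither probe checks the genotype. The 12 measured genes of the chromosome 9 stretch around Thy1 included 0 calls and had a median of -0.34.

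Nod1, the intracellular receptor for bacterial peptidoglycan fragments on which the series centres, was higher in Edited. It read 1.58 and 1.61 in Non-edited and 3.94 and 4.20 in Edited, a difference of 2.47 or 5.54-fold. Auto.Neg read 2.89 and 3.23, WT 4.04 and 3.66, and Auto.Pos 5.45 and 5.08, so Non-edited was the lowest of the 8 samples and Edited lay at the level of WT. The largest difference between samples of a group was 0.38. The 14 alternative settings gave 2.36 to 2.58. Of 22 measured genes of NOD receptors and the inflammasome, 3 were higher and 0 lower, with a median of 0.16. Over all genes outside the immunoglobulins 0.958% were higher and 0.167% were lower, the shares against which this and each later list is to be read. Casp4, the inflammatory caspase for cytosolic lipopolysaccharide, read 0.18 and 0.70 in Non-edited and 1.71 and 2.24 in Edited. Naip5, a flagellin sensor, read -1.43 and -1.75 against -0.09 and -0.37, and Edited was above all other samples. Nod2 and the adaptor kinase Ripk2 differed by -0.04 and 0.04.

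Cd9, a tetraspanin of marginal zone and B-1 cells, went with Nod1. It read 2.44 and 3.1 in Non-edited and 4.99 and 5.58 in Edited, beside 5.89 and 5.94 in Auto.Pos and 2.99 to 4.02 in Auto.Neg and WT. The difference was 2.51 on this probe and 0.29 on a second, dimmer one, and 1.40 when both were averaged. Of 19 measured marginal zone genes 3 were higher and 0 lower (0.958% and 0.167% over all genes outside the immunoglobulins), with a median of 0.44. Besides Cd9 these were Myof, a membrane repair protein, with -1.91 and -1.34 against -0.44 and 0.37, and S1pr3, a sphingosine phosphate receptor, with 2.43 and 2.17 against 3.59 and 3.50. Dtx1 and Notch2, of the Notch pathway that marginal zone cells need, differed by 0.44 and 0.37 and were not called. Of 18 measured B-1 genes 4 were higher, with a median of 0.46. They were Ptpn22, a phosphatase that dampens receptor signals (1.98), Ahr, the aryl hydrocarbon receptor (1.54), Cd300lf (1.24, within the replicate spread) and S100a6 (1.12), while Cd5 differed by -0.09 and Bhlhe41 by -0.13. No member of the follicular, germinal centre or transitional lists was called, of 19, 11 and 12 measured.

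**Figure D4:**
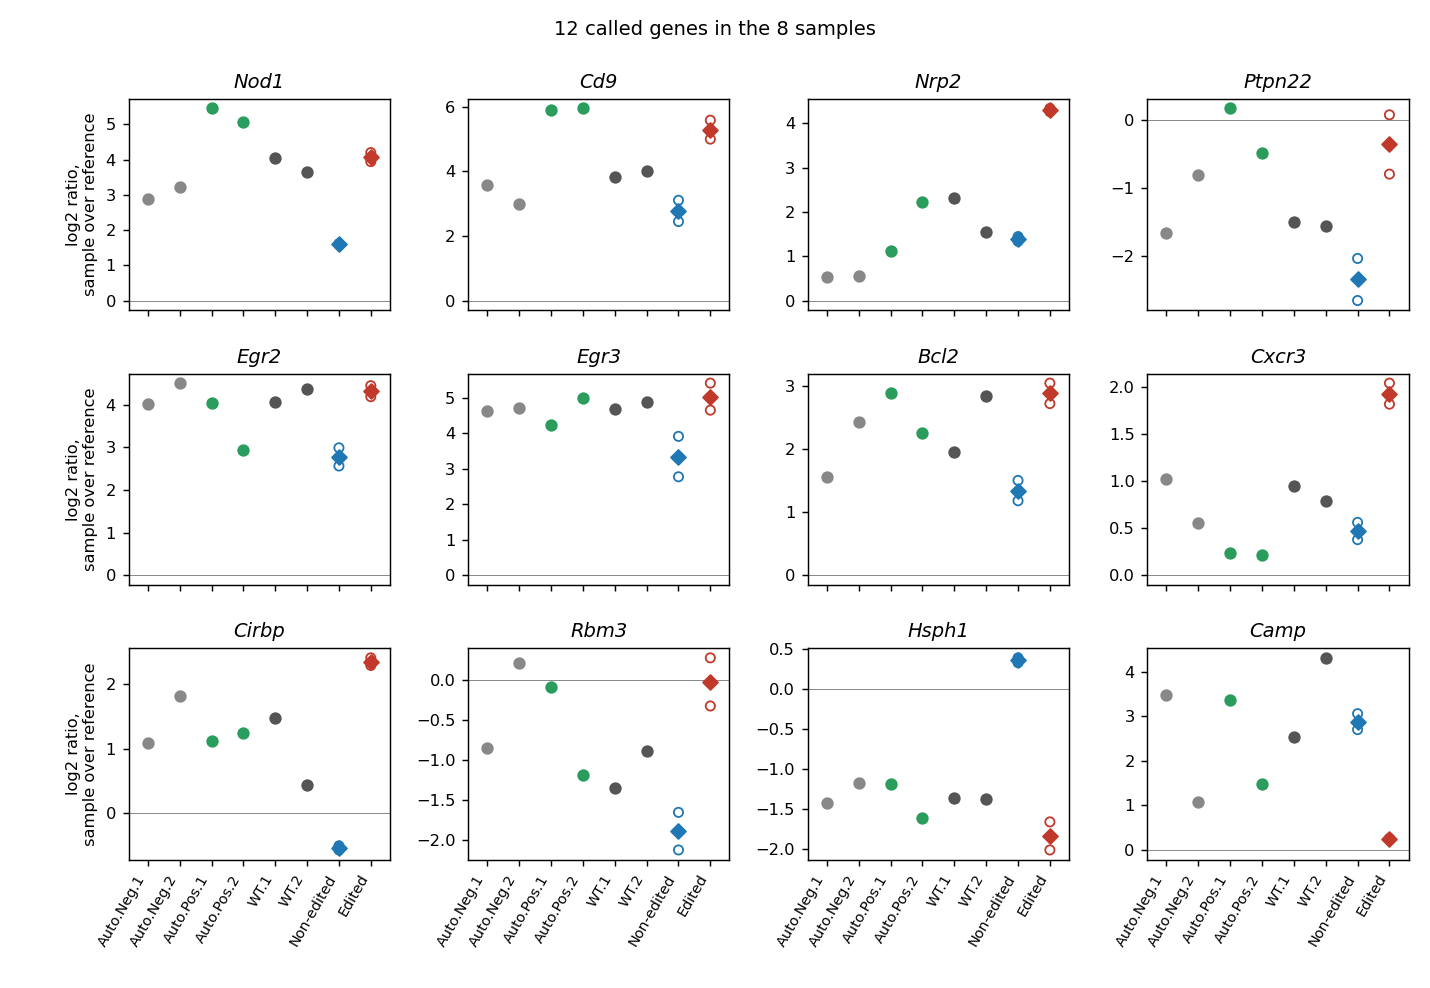
Levels (log2 ratio of sample over reference) of 12 called genes in the 8 samples. Filled symbols are sample means, diamonds mark Non-edited (blue) and Edited (red), and open circles are their 2 arrays. Nod1, Egr3 and Bcl2 are lowest in Non-edited, Nrp2 and Cxcr3 are highest in Edited, Hsph1 stands apart in Non-edited, and Camp in Edited.

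Among genes of receptor signalling the calls were few. Of 27 measured genes of the signalling cascade 0 were called, and the median was -0.04. Of 24 inhibitors of signalling 2 were higher, Ptpn22 and Fcrl5, an Fc receptor-like inhibitor, which read 1.22 and 1.61 in Non-edited and 2.98 and 3.29 in Edited. Of 22 immediate early genes 2 were higher. Egr3 read 2.77 and 3.91 in Non-edited and 4.65 and 5.41 in Edited, and Egr2 read 2.99 and 2.56 against 4.44 and 4.18. Both encode zinc finger factors induced by receptor engagement. Non-edited was the lowest of the 8 samples for both. The 6 other samples read 4.24 to 5.00 for Egr3, while for Egr2 Auto.Pos.2, at 2.94, was close to Non-edited. Egr1 and Nr4a1 differed in the same direction by 0.76 and 0.79 without a call, and the list median was -0.08. Of 20 NF-kB genes 0 were called.

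Of 23 survival genes 3 were higher and 0 lower (0.958% and 0.167% over all genes outside the immunoglobulins), with a median of 0.03, and of the 3 only Bcl2 exceeded the replicate spread. Bcl2, the anti-apoptotic protein, read 1.18 and 1.5 in Non-edited and 2.72 and 3.04 in Edited, while the other samples ran from 1.56 to 2.89. Bcl2a1b, its activation-induced relative, differed by 1.23 and Pmaip1, which encodes the pro-apoptotic Noxa, by 2.24. Cxcr3, a chemokine receptor, was the call among 23 cytokine receptor genes, with 0.56 and 0.38 against 2.04 and 1.81, and Edited was the highest of all samples. Of 27 genes of recombination and early B cell development 0 were called and the median was -0.31. Rag1, a subunit of the recombinase, read -3.68 in Non-edited and -4.14 in Edited, and Rag2 was not well above background in either.

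Of 16 measured genes of the heat shock and cold response, 2 that encode cold-induced RNA-binding proteins were higher, 2 that encode chaperones were lower and 12 were not called. The list median was -0.60. Cirbp read -0.57 and -0.50 in Non-edited and 2.41 and 2.29 in Edited, and its relative Rbm3 read -1.65 and -2.12 against 0.27 and -0.33. Hsph1, a large heat shock protein, read 0.33 and 0.39 in Non-edited and -1.67 and -2.02 in Edited. Dnaja1, a co-chaperone, read 0.68 and 0.97 against -0.37 and -0.04. For Hsph1 the 6 other samples lay between -1.62 and -1.18, near Edited, and for Cirbp between 0.43 and 1.82, so that both samples lay outside the range of the others, on opposite sides. Stip1 and Fkbp4, co-chaperones of the heat shock proteins that were not on the list and are named after their values were seen, were also called lower, at -1.40 and -1.14, both within the replicate spread. These genes respond to temperature and handling, and their part in the other differences was not tested.

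The 15 named genes with the largest differences above the replicate spread in the higher direction, outside the immunoglobulins, were led by Nrp2, a semaphorin and growth factor co-receptor. It read 1.34 and 1.44 in Non-edited and 4.34 and 4.26 in Edited, against 0.54 to 2.33 in the 6 others. Cirbp, Lmo7, Cd9 and Nod1 came next. Lmo7, a LIM domain protein, read 1.36 and 1.20 against 3.70 and 3.91, and its second probe differed by 0.04. Abca5, a lipid transporter, read -1.0 and -0.86 against 1.31 and 1.5, with all 6 others between -1.17 and -0.44. Its second probe differed by 0.10. Hdac9, a histone deacetylase, differed by 2.33 on its brightest probe and by 0.84 and 0.54 on the others. Echdc3 (2.38), Akap5 (2.37), Ndrg1 (2.13), Gad1 (2.08), Fam160a1 (2.08), Tgfb3 (2.03), Wscd2 (1.99, and 0.56 and 0.10 on its other probes) and Ptpn22 made up the rest. Of the 172 higher genes outside the immunoglobulins, Edited alone lay outside the range of the 6 other samples for 57 and Non-edited alone for 56. Both did for 29 and neither for 30. Over all units tested the shares were 16.2%, 11.1%, 13% and 59.7%.

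Among the 15 named genes in the lower direction, 2 encode neutrophil granule proteins. Camp, the cathelicidin, had the largest difference among the units called lower, at -2.63. It read 2.70 and 3.06 in Non-edited and 0.25 and 0.26 in Edited, where it was above background on 1 of the 2 arrays, and 1.07 to 4.32 in the 6 others. Ltf, lactoferrin, was not well above background in Edited and was at least 3.72-fold lower there, while a second probe gave at least 1.81-fold. Hsph1 differed by -2.20. Penk, the enkephalin precursor, read 1.75 and 1.27 against -0.08 and -0.17. Gpr34, a lysophosphatidylserine receptor, read 2.36 and 2.59 against 1.09 and 1.14, with the 6 others between 0.08 and 1.14. The remaining ones were 0610040J01Rik (-1.62), Lman2l (-1.58), Ptchd4 (at least 2.63-fold lower), Slc16a10 (-1.21, and -0.36 on a second probe), Tmem176b (-1.21), Gpt2 (-1.20), Abcg2 (-1.19), Cbx2 (-1.18), Ssbp2 (-1.16, and -0.17 on a second probe) and H1f5 (-1.10).

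Marker lists of other cells bore on a few of these. Of 15 measured neutrophil genes 2 were lower and 1 was higher, Mpo, by 1.61, within the replicate spread, as it read 4.16 in Auto.Neg.1 and -0.34 in Auto.Neg.2. The summed sample intensity of the list was 9966 in Edited and 15927 in Non-edited, beside 13725 to 54151 in the other samples, and S100a8 and S100a9 differed by -0.43 and -0.40. Over the 12 members that were not called, thus without Camp, Ltf and Mpo, the sum was 9373 in Edited and 14479 in Non-edited, against 12985 to 48273 in the others. The part of neutrophil RNA in the difference of Camp and Ltf was not tested. Of 18 T cell genes Lck was called higher, with -2.17 and -2.52 against -0.47 and -0.51, but Cd3d, Cd3g and Cd3e differed by -0.76, -0.56 and -0.19 and the sums without Lck were 25976 in Edited and 34819 in Non-edited. Of 8 NK cell genes Tbx21, which activated B cells also express, was higher by 2.49, within the replicate spread, and 6 further NK markers were not above background, Ncr1 and Klra8 among them. The NK sum was 25450 in Edited against 9345 in Non-edited, and 5875 against 5701 without Tbx21. Of 17 macrophage genes Adgre1 was higher by 1.49, with Csf1r at 0.08 and C1qa at 0.19, and the sums without Adgre1 were 50506 in Edited and 27994 in Non-edited, beside 38603 to 137288 in the others. In bulk RNA a change in the number of such cells and a change in RNA per cell cannot be told apart. Of 21 plasma cell genes Derl3 was higher (1.53) and Xbp1 lower (-1.04, within the replicate spread), while Jchain and Sdc1 differed by 0.33 and 0.51.

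**Figure D5:**
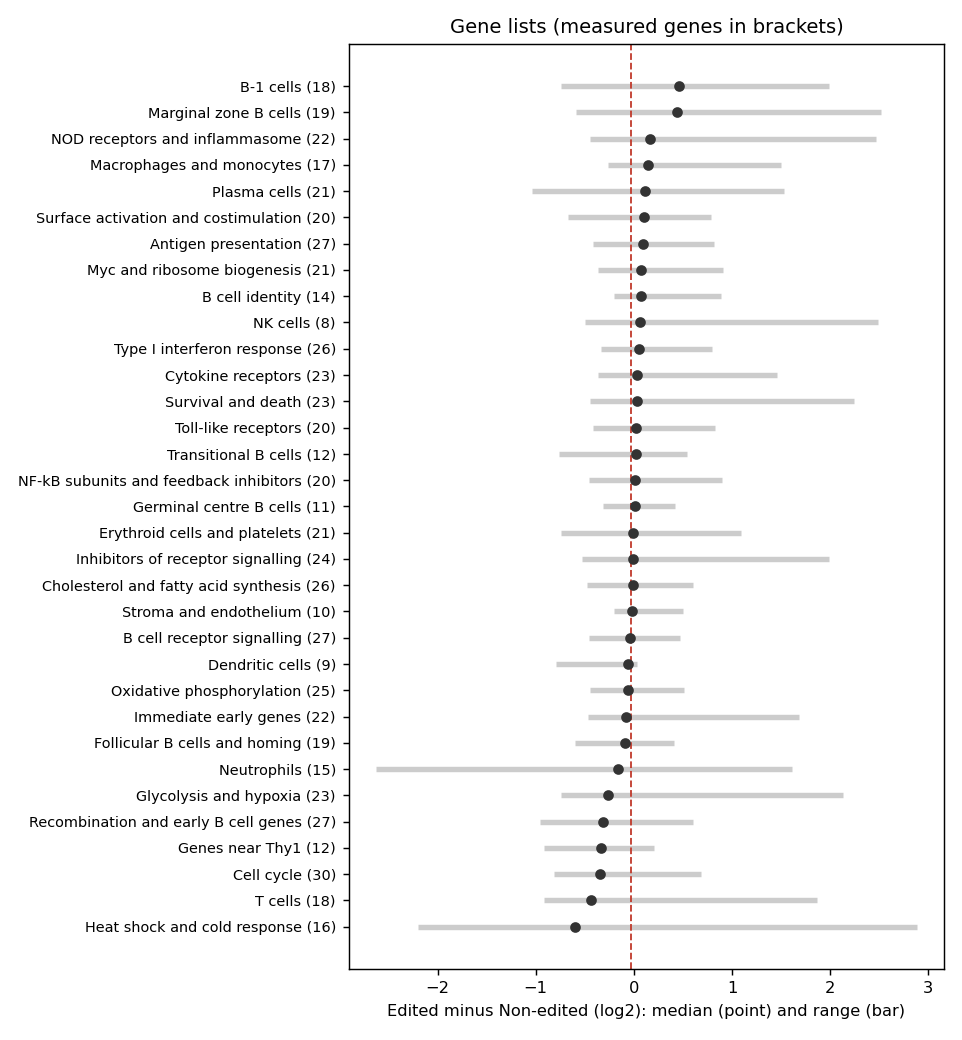
Median (point) and range (bar) of the difference between Edited and Non-edited (log2) over the measured genes of each list, with the number of genes in brackets and the median over all units, -0.03, as a dashed line. The B-1 (0.46) and marginal zone (0.44) lists have the highest medians and the heat shock and cold list (-0.60) the lowest.

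No member was called in the lists of Toll-like receptors (20 measured), interferon response (26), antigen presentation (27), surface activation (20), cell cycle (30), Myc and ribosome biogenesis (21), cholesterol synthesis (26) and oxidative phosphorylation (25). Medians of these lists lay between -0.35 and 0.10. Of 23 glycolysis and hypoxia genes Ndrg1 was higher and the median was -0.26. The genes nearest to the 2-fold limit show how sharp it was. Just inside were Zfand1 (1.12), Zc3h6 (1.05), Ncan (1.05), Dnaja1 (-1.03) and Map3k8 (1.02). Just outside were Anxa2 (1.15), Art4 (-1.02), Krt222 (1.09), Chst7 (1.11) and Plin2 (-1.13), each of which missed the limit in 1 orientation.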

How the data were processed

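The deposited scanner files hold, per the file headers, the mean spot and median local background intensity of each channel on Agilent arrays with 41174 probes, and a log10 ratio of red over green that the scanner software had already background-corrected and dye-normalized. The deposited series table holds log2 ratios, for which the submitters' processing notes name limma without a version. The intensity values were corrected with normexp (offset 50) and normalized by loess within each array in limma 3.58.1 (R 4.3.3), with control and flagged spots at weight 0, and turned to sample over reference. The other values served as alternatives, the log10 ratio turned to log2. Probes had to be well above background in the sample's colour on both arrays of Edited or of Non-edited (26324 probes), and the brightest kept probe stood for a gene. Immunoglobulin probes were found by name, description and, for 39, by position in the kappa or heavy chain locus alone, a rule widened after values were seen. Symbols came from the files and the RefSeq gene table. A bound (at least N-fold) is the lower of the fold of the measured ratios and of the sample-channel fold, in which the dimmer sample counts at the higher of its own signal and the lowest signal well above background.

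The members and the 34 gene lists were chosen with earlier results of these data known. Named are the label checks, up to 10 immunoglobulin units in each direction, the 15 genes with a symbol and the largest difference beyond the replicate spread in each direction, every called list member up to 6 or otherwise examples, and 5 genes on each side of the limit. A pair of heavy units was also named, picked for the largest mean of the transgenic samples over WT. The calling step was tested on made-up shifts. The number of arrays limits the precision. Amplification started from 100 ng of total RNA, per the labels' protocols, a step that can shift low signals. No per-sample column was left unused.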

Additional observations from a re-analysis of the deposited data

How the results depend on the processing

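With 1 sample of each kind, the spread between mice is unknown, and the replicate spread used as a scale also holds scan day and slide. In Auto.Pos it also holds sex-linked differences, as Xist read 0.02 in Auto.Pos.1 and 9.12 in Auto.Pos.2. No paired analysis was possible because no test was made and the 2 arrays of a sample hold the same RNA. Dim units had compressed differences, since the offset pulls low ratios toward 0.

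Of 578 comparisons of counts and medians with 16 alternatives, 535 stayed close to the value reported. The count of lower units (35) was 10 with median centring, 64 with offset 16, 153 with the scanner's log10 ratio, 62 with either reading of the series table, 79 with either orientation left out, 263 at 1.5-fold and 6 at 3-fold. The count of higher units (267) was 619, 737 and 110 with the scanner's ratio, 1.5-fold and 3-fold, and 223 to 355 otherwise. Units beyond the replicate spread (247) were 538 with the scanner's ratio. The median of heavy units (1.44) was 1.97 with offset 16, 2.06 with the series table and 3.34 with the scanner's ratio, and that of kappa units (1.64) was 2.05 with the latter. The cause was not tested.

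Median centring raised the median of all units to 0.13 and list medians with it: B cell identity 0.33, NF-kB 0.26, survival 0.29, marginal zone 0.64, B-1 0.63, transitional 0.27, plasma cells 0.34, antigen presentation 0.31, cytokine receptors 0.25, Myc 0.33, glycolysis -0.033, cholesterol 0.22, oxidative phosphorylation 0.19, dendritic cells 0.053, stroma 0.12 and genes near Thy1 -0.089. The scanner's ratio gave B-1 0.70 and stroma 0.17, no filter gave B-1 0.26, and the sample channel alone gave glycolysis -0.21. With 1 orientation left out NF-kB ran from -0.12 to 0.048, marginal zone from 0.34 to 0.40, Myc from 0.045 to 0.14 and oxidative phosphorylation from -0.14 to 0.11.

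For 136 differences of named units, 1896 comparisons with the alternatives left 1760 close to the value reported, while 135 moved further and 1 reversed: LOC674029 was 0.56 with the scanner's ratio, and -2.74 to -1.5 with the 13 others.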
